A study of Mus musculus with 22 samples.

Results

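Resting basal cells of the control mouse esophagus were taken as the cells in which basal keratins made up most of a small panel of keratinocyte transcripts and in which few transcripts of dividing cells were counted. In each cell of the control libraries, the UMIs (unique molecular identifiers, 1 per captured transcript molecule) of Krt5, Krt14 and Krt15 were set against those of Krt4, Krt13 and Krtdap. A cell was kept when these 6 genes together had at least 10 UMIs and the basal keratins held at least 0.5 of them. It was left out as cycling when Top2a, Mki67, Cenpf, Ube2c, Cdk1, Ccna2, Ccnb1, Nusap1 and Birc5 together reached 3 UMIs and 0.3% of its UMIs. The rule kept 515 of the 1500 control cells, and 4500 cells were deposited for the whole series. The other 985 control cells comprised 191 cycling basal cells, 143 intermediate cells (basal share of 0.2 to under 0.5), 592 differentiated cells (under 0.2), 41 other cycling cells and 18 cells with under 10 keratin UMIs.

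The study profiled esophageal epithelium peeled from C57BL6 mice by inDrop, a droplet method for single cell RNA sequencing. The controls were untreated, 3 mice of 3 to 4 months (young, mice 1, 2 and 6) and 3 of 18 to 20 months (old, mice 3, 4 and 5), each with 2 libraries. Cells meeting the same rule were also sought in 3 mice of 8 to 10 months given the carcinogen 4NQO in drinking water (ESCC, esophageal squamous cell carcinoma; mice 8M, 17F and 17M) and in 4 mice with EoE (eosinophilic esophagitis) induced by MC903 and ovalbumin, 2 of 6 to 8 weeks and 2 of 19 to 20 months. The labels call all samples squamous cells, name no transgene and give no sort.

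The esophagus of the mouse is lined by a stratified squamous epithelium that renews itself from its basal layer. Basal cells sit on the basement membrane, to which they are held by hemidesmosomes, junctions in which integrin alpha6beta4 and collagen XVII meet the plakins dystonin and plectin inside the cell. They divide, and daughters that leave the membrane stop dividing, exchange Krt5 and Krt14 for Krt4 and Krt13, strengthen their desmosomes and build the cornified surface. The transcription factor p63, encoded by Trp63, is required for the basal state.

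The 6 control mice gave 71 to 409 cells each, of which 37 to 117 were resting basal, with 48322 to 101507 UMIs per mouse in those cells. Both libraries of a mouse shared cell barcodes. In the controls 122 barcodes occurred in both libraries of a mouse, and 111 of these pairs fell in the same population, 45 of them as resting basal cells in both. The profiles of such pairs had a median correlation of 0.625 to 0.790 by mouse, against 0.262 to 0.301 for other pairs. Each barcode counted once gives 466 resting basal cells of 1378. All tests between populations, ages and conditions were also run with the second copy left out, and libraries of a mouse were summed throughout. Scrublet, a doublet caller, marked 8 of the 1500 control cells (0.533%), and none was a resting basal cell. The depth of a cell varied with the population: the median was 979 ± 159 UMIs per cell (SD, n = 6 mice) in resting basal and 1171 ± 267 in the other control cells, lower in 6 of 6 mice (two-sided exact sign-flip permutation test, p = 0.03125, the smallest that 6 pairs can give). With each cell thinned to 500 UMIs, resting basal cells held 385 ± 6.23 genes and the other cells 374 ± 6.74, higher in 6 of 6 mice (exact permutation test, p = 0.03125).

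The genes of the rule are given as a description, since they chose the cells. Levels are CPM, the counts scaled to a common library size with TMM factors, over the 6 mice, as lowest, median and highest. In resting basal cells Krt5 was at 7590, 8778 and 9891 CPM, Krt14 at 3490, 5227 and 5816 CPM and Krt15 at 7913, 8617 and 9058 CPM. In the other control cells of the same mice the medians were 3337, 1223 and 3239 CPM. Krt4 had a median of 2644 CPM in resting basal and 40152 CPM in the other cells, Krt13 3150 and 16353 CPM, and Krtdap 112 and 9863 CPM. Most resting basal cells, 379 of 515 (73.6%), had no UMI of the 9 cycle genes, 95 had 1, 27 had 2 and 14 had 3 or more while staying under 0.3%.

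Markers of immune, endothelial and muscle cells were near 0, while Dcn and Epcam of the other lists were not. The immune list had 5 UMIs over the 515 cells, with 6 of its 8 genes at 0, the endothelial list had 1 and the muscle list 6. In the 985 other control cells these lists had 4, 14 and 6 UMIs. The 6 immune genes at 0 had no UMI in those cells either, so their zeros cannot tell resting basal cells from the rest. Col1a1, Col1a2 and Col3a1, which define fibroblasts, had no UMI, and 5 of the 6 fibroblast genes were at 0. The 153 UMIs of that list all came from Dcn (decorin), which was at 158, 250 and 583 CPM in resting basal cells and at 31.3, 129 and 469 CPM in the others. In the list for simple epithelium Krt8 and Krt18 were at 0 in resting basal and other control cells alike. Epcam, an epithelial adhesion gene, had 147 UMIs in 107 of the 515 resting basal cells and 290 UMIs in 215 of the 985 others. The part of other cells in the results was not tested. Of the 5 genes given as markers of these cells, Krt5, Krt14 and Krt15 chose the cells, and Col17a1 and Dst, which did not, were higher than in the other control cells, as given below.

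Promoters of 3 genes are shown, those on which the results below turn, as the 250 bases before the annotated start, 5′ to 3′ on the strand of the gene, from RefSeq on GRCm38.p6. Col17a1 (chr19:47692043-47692292, minus strand) encodes the hemidesmosome collagen that was higher in resting basal cells. Ccn1 (chr3:145649986-145650235, minus strand) encodes a matricellular protein that was higher in resting basal cells and again in those of old mice. Dmkn (chr7:30763506-30763755, plus strand) encodes dermokine of the differentiated layers and was lower in both. Capitals mark matches, on either strand, to the 3 motifs described after the sequences.
Col17a1: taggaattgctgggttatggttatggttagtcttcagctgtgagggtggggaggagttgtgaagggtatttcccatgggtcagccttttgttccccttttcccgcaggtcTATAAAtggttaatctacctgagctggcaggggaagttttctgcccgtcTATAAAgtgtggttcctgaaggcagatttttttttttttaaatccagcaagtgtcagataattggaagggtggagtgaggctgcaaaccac
Ccn1: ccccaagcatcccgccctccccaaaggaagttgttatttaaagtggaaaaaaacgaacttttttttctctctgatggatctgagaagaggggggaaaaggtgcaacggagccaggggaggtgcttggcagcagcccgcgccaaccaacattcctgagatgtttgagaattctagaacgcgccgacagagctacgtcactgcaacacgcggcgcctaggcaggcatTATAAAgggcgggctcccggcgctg
Dmkn: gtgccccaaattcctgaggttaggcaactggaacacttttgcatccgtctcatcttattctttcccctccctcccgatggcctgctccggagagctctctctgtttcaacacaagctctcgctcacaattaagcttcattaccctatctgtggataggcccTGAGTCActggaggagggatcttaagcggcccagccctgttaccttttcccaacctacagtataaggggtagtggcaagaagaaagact
The TATA box letters TATAAA were found at -140 and -91 in Col17a1 and at -25 in Ccn1, counted from the start. The AP-1 motif TGANTCA had a match at -89 in Dmkn. The E-box CAGGTG was in none of the 3. No match overlapped another. Of all 32851 promoters cut to the same window, 12.4% held the TATA box, 17.2% the E-box and 6.75% the AP-1 motif, so these matches are a description of the letters.

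Resting basal cells were then compared with all other control cells of the same mouse, with the mouse as a block. Genes of attachment to the basement membrane, the D cyclin Ccnd2, p63, the growth factor receptors Fgfr2, Fgfr3 and Igf1r and most of the ribosomal proteins tested were higher in resting basal cells. Genes of desmosomes, of the cornified surface and of late differentiation, and the cycle inhibitor Cdkn1a, were lower. Of 1910 genes tested, 391 were higher (20.5%) and 412 lower (21.6%) at an adjusted p under 0.05 (edgeR quasi-likelihood test, Benjamini-Hochberg adjustment over all genes tested). With the second copy of shared barcodes left out, 380 were higher and 390 lower of 1687. The 2 sides were separated by other transcripts of the same cells, so the test says that a gene differed alike across mice, not that the groups were defined apart from expression.

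**Figure D1:**
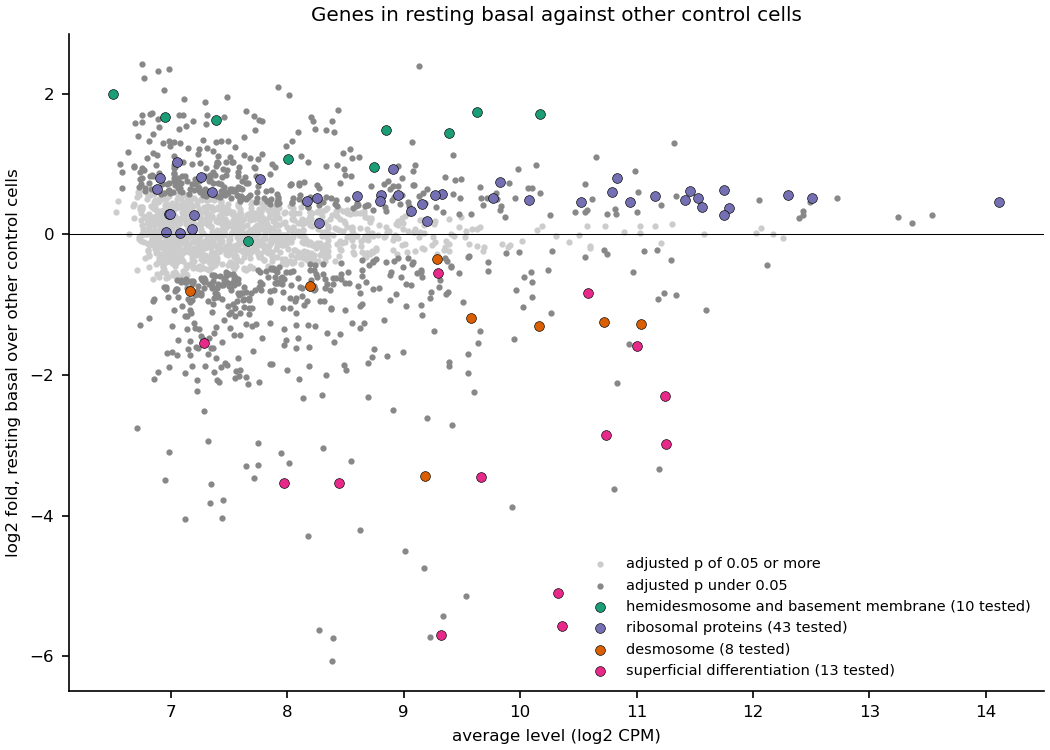
Each point is 1 of 1910 genes tested, with its average level (log2 CPM) on the horizontal axis and its log2 fold in resting basal over other control cells on the vertical axis; dark grey points passed an adjusted p of 0.05 and colors mark 4 gene lists. All but 1 of the 10 hemidesmosome and basement membrane genes lie well above 0, ribosomal proteins form a band with a median of 0.51, and desmosome and superficial differentiation genes lie below 0.

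Hemidesmosome and basement membrane genes gave the clearest group on the higher side. Of 20 listed, 10 had enough counts to be tested and 9 of these were higher, none lower, with a median log2 fold of 1.56 against 0.00 over all genes tested. Col17a1 was at 1270, 1337 and 1452 CPM in resting basal cells and at 286, 447 and 531 CPM in the other cells, without overlap. Its log2 fold was 1.74 ± 0.11 (SE; edgeR, adjusted p = 6.11e-32), higher in 6 of 6 mice. Dst (chr1:33907888-34308662), which encodes dystonin, was at 1502, 1979 and 2239 CPM against 394, 500 and 999.6 CPM, a log2 fold of 1.71 ± 0.10 (edgeR, adjusted p = 3.96e-36), again in 6 of 6 mice. Itga6 and Itgb4, the 2 chains of the hemidesmosome integrin, had log2 folds of 1.45 ± 0.12 and 1.48 ± 0.14. Lama3 and Lamb3, chains of laminin 332, rose by 2.00 ± 0.28 and 1.63 ± 0.22 on the log2 scale. Plec (0.96), Itgb1 (1.07) and Fermt1 (1.67) also passed the test, while Cd151, a tetraspanin of these junctions, had a log2 fold of -0.09 and did not. At 500 UMIs per cell, Col17a1 was seen in 240 of 500 resting basal cells (48.0%, Wilson 95% interval 43.7 to 52.4) and in 39 of 581 differentiated cells (6.71%, 4.95 to 9.04). Unthinned shares were 71.5% and 11.1%, at median depths of 917 and 1139.5 UMIs. In nearer populations at 500 UMIs, Col17a1 was seen in 88 of 189 cycling basal cells (46.6%, 39.6 to 53.7). For intermediate cells it was 42 of 139 (30.2%, 23.2 to 38.3). The part of free RNA in the share of differentiated cells was not tested, and the intervals cover counting error only.

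**Figure D2:**
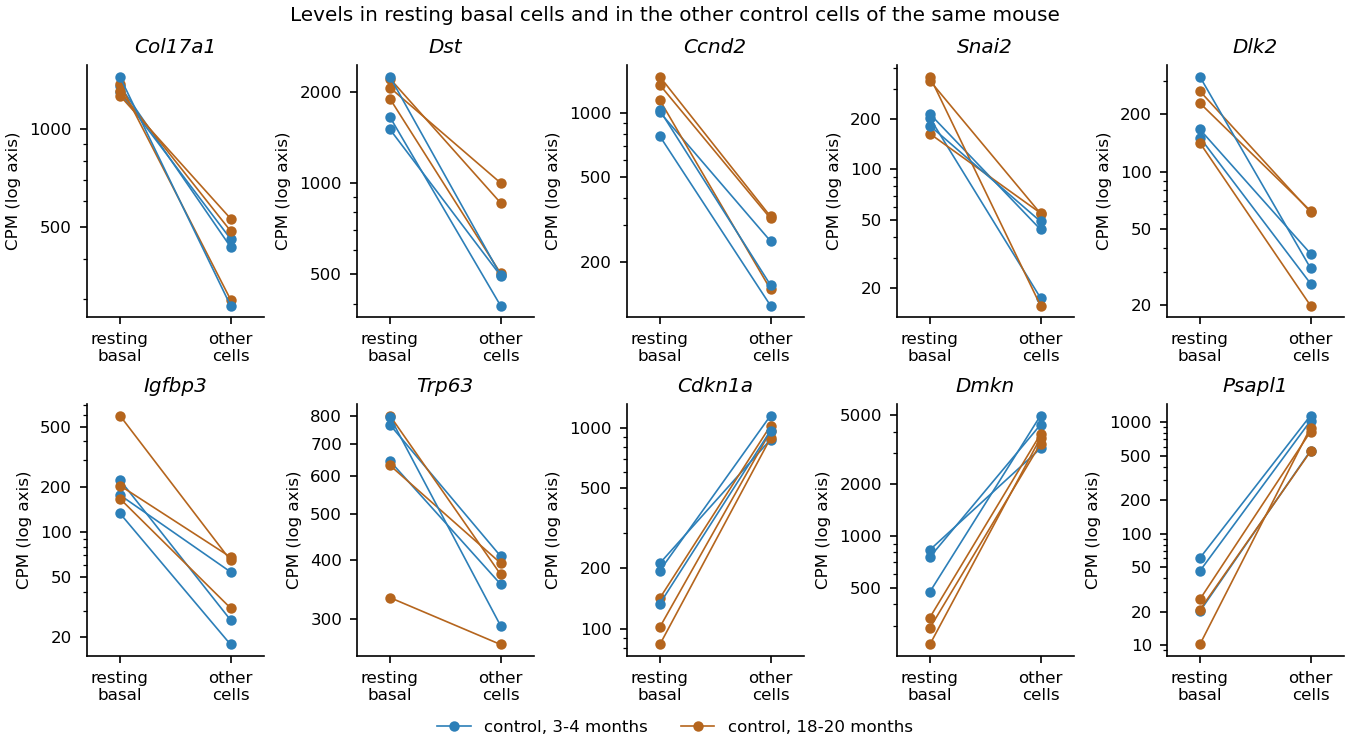
Each line joins the level of a gene in resting basal cells to that in the other control cells of 1 mouse, in CPM on a log axis, for 3 young (blue) and 3 old (brown) mice. Col17a1, Dst, Ccnd2, Snai2, Dlk2, Igfbp3 and Trp63 are higher in resting basal cells in 6 of 6 mice, and Cdkn1a, Dmkn and Psapl1 are lower in 6 of 6. The same direction in all mice was a condition for naming Snai2, Dlk2, Igfbp3 and Psapl1.

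Genes were ranked by their rise if they passed the test, had an average log2 CPM of at least 6 and rose in 6 of 6 mice. Among these the 10 largest rises were of Dlk2, Ccnd2, Igfbp3, Snai2, Ptpre, Ccn1, Antxr1, Lama3, Wfdc2 and Gpnmb. Their agreement over mice was thus set by the choice. Dlk2, a membrane protein related to the Notch ligands, was at 142, 198 and 315 CPM in resting basal and at 19.9, 34.3 and 62.5 CPM in the other cells. Its log2 fold was 2.43 ± 0.26 (edgeR, adjusted p = 1.80e-15). Ccnd2 (chr6:127125162-127152188), the cyclin D2 of early G1, was at 778, 1088 and 1478 CPM against 126, 204 and 328 CPM. The 2 ranges were apart, and the log2 fold was 2.40 ± 0.13 (edgeR, adjusted p = 2.26e-39). Igfbp3, which binds insulin-like growth factors, was at 133, 190 and 593 CPM against 17.9, 42.8 and 68.1 CPM, with the highest value in an old mouse. Snai2, the transcriptional repressor Slug, was at 163, 207 and 354 CPM against 15.6, 46.7 and 55.1 CPM. Ccn1, a matricellular target of YAP, ran from 212 to 877 CPM in resting basal cells against 8.67 to 184 CPM in the others, and its ranges did not overlap. The remaining 5 genes had log2 folds from 1.94 (Gpnmb) to 2.22 (Ptpre). Dlk2, Snai2, Igfbp3, Ptpre, Antxr1 and Lama3 rest on 81 to 126 UMIs over all resting basal cells, so their levels in 1 mouse are imprecise.

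Regulators of the basal state moved unequally. Among basal transcription factors, 4 of 8 tested (13 listed) were higher and 1 lower, with a median log2 fold of 0.27. Trp63 was at 333, 707 and 804 CPM in resting basal cells and at 266, 364 and 407 CPM in the others, a log2 fold of 0.97 ± 0.13 (edgeR, adjusted p = 1.105e-10). One old mouse was low on both sides, so the ranges overlap although 6 of 6 mice rose. Myc (0.99), Sox2 (0.43) and Bcl11b (0.43) also rose, with Myc and Sox2 higher in 5 of 6 mice. With DESeq2 in place of edgeR 2 of the 8 were higher, and Sox2 did not pass (adjusted p = 0.0841). Klf5 was level, at medians of 2116 and 2032 CPM with a log2 fold of 0.01 ± 0.08, and Pitx1 fell by 0.53 on the log2 scale. Factors that drive differentiation were lower in 6 of 7 tested, with a median of -0.95. Klf4 was at 524, 693 and 929 CPM against 1084, 1505 and 1909 CPM, without overlap, and Grhl3 had the largest fall, to a median of 22.5 CPM from 529 CPM.

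Receptors and ligands were divided. Of the 6 growth factor receptor genes tested, Fgfr2 (log2 fold 1.31 ± 0.13), Fgfr3 (0.79 ± 0.23) and Igf1r (1.22 ± 0.24) rose, and Erbb3, Bmpr1a and Bmpr2 did not pass. Fgfr2, the receptor for keratinocyte growth factor, was at 437, 870.0 and 1084 CPM in resting basal cells and at 141, 339 and 421 CPM in the others. At 500 UMIs per cell it was seen in 34.6% of resting basal and 33.9% of cycling basal cells. In the Notch list 1 of 4 genes tested passed. It was the ligand gene Jag2, at 232, 339.6 and 580 CPM against 93.7, 111 and 165 CPM (log2 fold 1.60 ± 0.19, edgeR adjusted p = 5.60e-13). Notch1 (0.24), Jag1 (-0.21) and the target Hes1 (0.11) did not pass. In the Wnt list 4 of 5 genes tested rose: Wnt10a by 1.73 ± 0.25, Tcf7l2 by 0.81 ± 0.24, Sfrp1 by 0.79 and Wnt4 by 0.59 ± 0.11. Of these Wnt4 has an annotated copy, another gene that shares part of its end sequence. Ctnnb1, which encodes beta-catenin, had a log2 fold of 0.14 and did not pass. With DESeq2 2 of these 5 rose, and Tcf7l2 did not pass (adjusted p = 0.0577), and 2 rose with the second copies left out. Of 2 cytokine and receptor genes tested, Il1r2, the decoy receptor of interleukin 1, rose by 1.62 ± 0.19 and Il1rn (-0.23) did not pass. Of 4 MHC class I and interferon genes tested, Ifitm3 rose by 1.46 ± 0.16 and H2-D1, which has an annotated copy, fell by 0.64 on the log2 scale, each in 6 of 6 mice. Over all genes tested 20.5% were higher and 21.6% lower. The Notch, cytokine and MHC lists had too few genes tested to set their counts against these shares.

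In the list of D cyclins and inhibitors of the cycle, 7 of 9 tested rose and 1 fell. Beside Ccnd2, Ccnd1 (cyclin D1) was at 171, 242 and 426 CPM against 67.9, 130 and 219 CPM, a log2 fold of 1.101 ± 0.21. Cdkn1b (0.66), Btg1 (0.83), Trp53 (0.60), Btg2 (0.29) and Cdk4 (0.83, with an annotated copy) rose as well, and DESeq2 called 4 of the list higher. Cdkn1a, which encodes the inhibitor p21, went the other way. It was at 83.3, 137 and 212 CPM in resting basal cells and at 876, 967 and 1154 CPM in the other cells, so that the 2 ranges were far apart (log2 fold -2.71 ± 0.15, edgeR adjusted p = 2.43e-37).

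On the lower side, 8 of 8 desmosome genes tested fell, with a median log2 fold of -1.21. Dsp (desmoplakin) was at 916, 1043 and 1510 CPM against 2140, 2799 and 3190 CPM, and Perp at 859, 927 and 1010 CPM against 1787, 2115 and 2677 CPM, both without overlap. All 13 superficial differentiation genes tested of 28 listed fell, with a median of -2.98. Genes that are low in resting basal cells could enter the test through the other cells alone. The cells were also chosen for a low share of Krt4, Krt13 and Krtdap. A fall of other differentiation genes was thus favored by the choice. Dmkn was at 234, 404 and 827 CPM against 3200, 3781 and 4962 CPM, and Tgm3, a transglutaminase of the cornified envelope, at 222, 349 and 532 CPM against 1752, 2577 and 3884 CPM. By the same limits on test, level and mice, the 10 largest falls were of Crabp2, Elovl4, Serpinb3a, Spink5, Fam25c, Serpinb12, Ly6g6c, Cnfn, Psapl1 and Asprv1, with log2 folds from -6.06 to -4.51. Serpinb3a has an annotated copy and is uncertain. Crabp2, which carries retinoic acid, had 3 UMIs in all resting basal cells and 610 in the others, a ratio of 81.0 with a 95% counting interval of 27.6 to 394. Cnfn (cornifelin) had a median of 26.8 CPM against 2287 CPM, and Spink5, a protease inhibitor of the surface, 10.7 CPM against 996 CPM.

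In the list of progenitor surface markers, 4 of 9 genes were tested. None of the 4 rose and 3 fell: Tfrc, the transferrin receptor, by 1.87 ± 0.29, Sdc1 (syndecan 1) by 0.54 ± 0.13 and Cd44 by 0.42 ± 0.13 on the log2 scale. The list was not sorted by whether a marker is high or low in progenitors, so these falls do not place the cells. Cd44 did not pass with DESeq2 (adjusted p = 0.0656). Wound keratins were low, and Krt6a alone was tested, at a median of 253 CPM against 304 CPM, with a log2 fold of 0.18 ± 0.17 that did not pass.

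Of 43 ribosomal protein genes tested (82 listed), 35 rose and none fell, with a median log2 fold of 0.51. Rps3, without an annotated copy, was at 5356, 6211 and 6872 CPM against 3678, 4116 and 4561 CPM (log2 fold 0.57 ± 0.06). Genes with an annotated copy can share reads in this family, and among the 21 tested genes without an annotated copy 18 rose, with a median of 0.49. As a share of all UMIs, ribosomal proteins took 7.58 to 11.0% in resting basal and 4.37 to 6.37% in differentiated cells. The ranges of cycling basal (6.46 to 9.37%) and intermediate cells (6.84 to 8.70%) overlapped that of resting basal cells. Oxidative phosphorylation stayed near level, with 4 of 56 genes higher and 3 lower and a median of 0.04. Glutathione and antioxidant genes had 2 of 14 higher, Sod1 (0.89, with an annotated copy) and Gclm (0.54), and 4 lower, among them Nqo1 (-0.82). Over all genes tested 20.5% were higher and 21.6% lower, so these counts are not read as a trait of the list. Immediate early genes, which also respond to tissue dissociation, were higher in 10 of 13 tested, with a median of 0.50, and Fos was at 4644, 5543 and 8556 CPM against 4016, 4904 and 6180 CPM. Without the mouse block Fos did not pass (adjusted p = 0.0960), nor did Egr1 (0.0821) or Dusp1 (0.0734). The part of dissociation in this was not tested.

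Resting basal cells were next set against cycling basal cells, which pass the same minimum keratin ratio, to ask what accompanies the resting state within the basal layer. The ratio itself differed, with Krt4, Krt13 and Krtdap at a median of 0.647% of UMIs in resting and 0.504% in cycling basal cells and the basal keratins at 2.33% and 2.31%. Of 1073 genes tested, 98 were higher (9.13%) and 99 lower (9.23%). By the same limits, used for the lower side too, the higher side was led by Ccnd2, Tgm3, Klf9, Igfbp3 and Glul. Ccnd2 was at 810, 1106 and 1521 CPM in resting and at 221, 278 and 404 CPM in cycling basal cells, without overlap (log2 fold 1.87 ± 0.17, edgeR adjusted p = 8.46e-25). Klf9, a target of glucocorticoid signaling, was at 326, 479 and 614 CPM against 80.2, 142 and 306 CPM (log2 fold 1.24 ± 0.25), and Glul, glutamine synthetase, had a log2 fold of 1.102 ± 0.23. Tgm3 (1.27) and the superficial genes Ly6d (0.83) and Gsta4 (0.50) were also higher in resting cells, the side with more Krt4, Krt13 and Krtdap, and the part of the ratio in this was not tested. Among hemidesmosome genes 4 of 9 were higher, with smaller differences than above: Dst by 0.56, Plec by 0.52, Itga6 by 0.37 and Col17a1 by 0.34 ± 0.12 (edgeR adjusted p = 0.0310). With DESeq2, or without the mouse block, 1 of the 9 was higher. Trp63 (-0.13) and Jag2 (-0.12) did not pass. The lower side was led by Iqgap3, Plk1, Aspm, Anln and Kif20b, genes of spindle and cytokinesis, with Anln at 13.1, 60.2 and 85.7 CPM against 627, 827 and 1043 CPM. Iqgap3 had 2 UMIs in resting and 62 in cycling basal cells, a ratio of 67.2 with a counting interval of 17.8 to 567. These genes follow the cycle genes that chose the cells, and all 13 tested mitosis genes outside the rule were lower. Without the mouse block 38 genes were higher and 76 lower.

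Genes of DNA replication, which the rule does not use, were not absent. At least 3 UMIs of the 21 listed genes were found in 58 of 515 resting basal cells (11.3%), against 73 of 191 cycling basal (38.2%), 7 of 143 intermediate (4.90%) and 2 of 592 differentiated cells (0.338%). In cells thinned to 500 UMIs the shares were 5.40% (Wilson 95% interval 3.74 to 7.74), 10.6% (6.96 to 15.8), 2.16% (0.737 to 6.15) and 0 of 581 differentiated cells, whose interval ends at 0.657%. Cells of all mice are pooled here, so the intervals cover counting error only and not the spread between mice. Barcodes shared by both libraries of a mouse are counted once per library. The 9 cycle genes are mostly of G2 and mitosis, so resting here means outside these phases. Rrm1, a subunit of ribonucleotide reductase, was 1.78 lower on the log2 scale than in cycling basal cells.

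**Figure D3:**
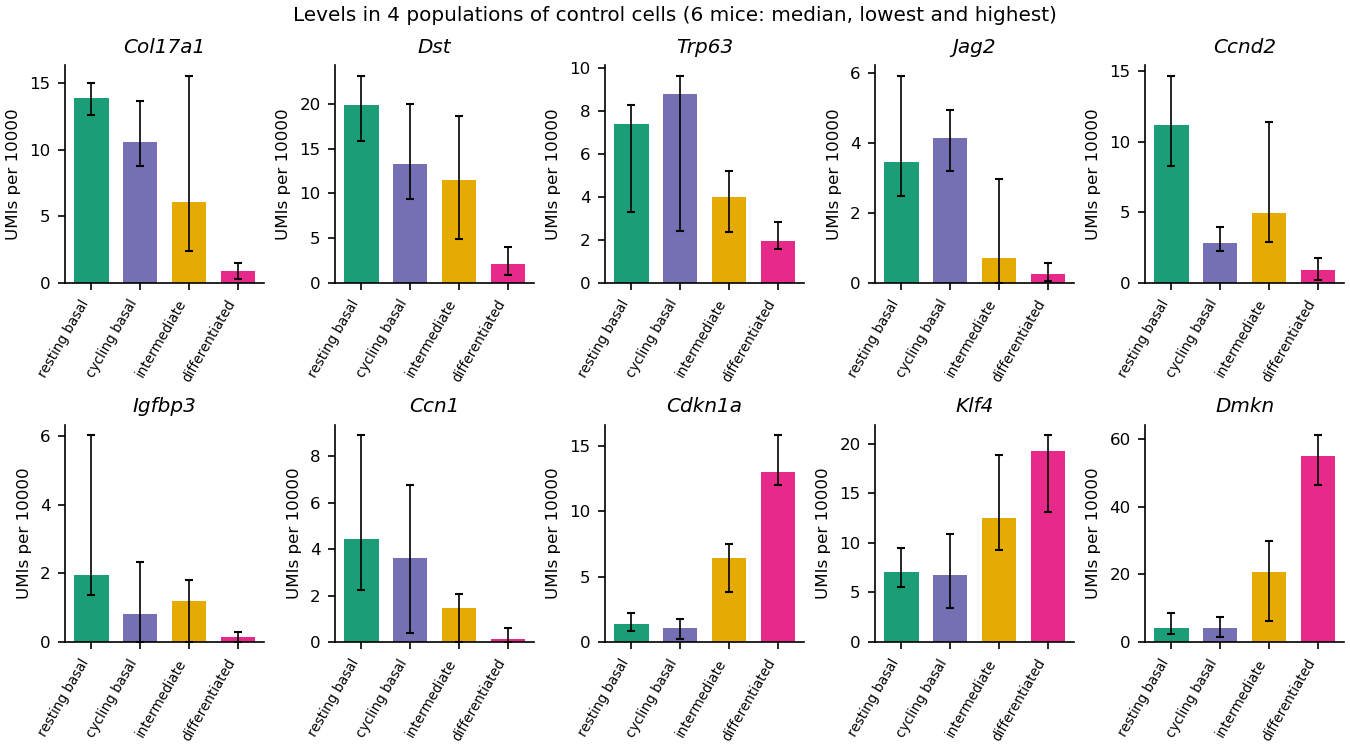
Bars give the median over 6 control mice of UMIs per 10000 UMIs in resting basal, cycling basal, intermediate and differentiated cells, and whiskers run from the lowest to the highest mouse. Col17a1 and Dst step down from resting basal to differentiated cells, Ccnd2 is highest in resting basal cells, and Cdkn1a, Klf4 and Dmkn climb towards the differentiated cells.

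The nearest neighbors on the way out of the basal layer were the intermediate cells. Of 922 genes tested, 42 were higher in resting basal cells (4.56%) and 62 lower (6.72%). Eid1, an inhibitor of EP300, was at 245, 312 and 388 CPM in resting basal and at 0, 30.1 and 77.5 CPM in intermediate cells (log2 fold 2.91 ± 0.47, edgeR adjusted p = 4.48e-07). This rests on 153 and 6 UMIs, a ratio of 7.75 with a 95% counting interval of 3.48 to 21.4. By the same limits Eid1 was followed by Ccn1 (1.89 ± 0.33), Igfbp7 (1.67 ± 0.28), Efemp1 (1.61 ± 0.34) and Wfdc2 (1.49 ± 0.30), of which Ccn1, Igfbp7 and Efemp1 encode secreted proteins of the matrix. Col17a1 (1.02), Itgb4 (1.16), Dst (0.86) and Itga6 (0.67) were higher too, as were Trp63 (0.83), Jag2 (1.33) and Fgfr2 (0.87). Lower were Mt4, a metallothionein of stratified epithelium, at 193, 338 and 649 CPM against 1114, 2654 and 3799 CPM (log2 fold -2.71 ± 0.16), Calml3 (-2.62), Fabp5 (-2.14, with an annotated copy), Dmkn (-2.02) and Cdkn1a (-1.98). All 6 desmosome genes tested and all 6 superficial genes tested were lower, with medians of -0.72 and -1.32, and 3 of the desmosome genes passed in DESeq2 or without the mouse block. The keratin ratio that set these populations apart favored such falls. Immediate early genes gave no call in 12 tested, and DESeq2 called 19 genes higher and 43 lower in all. Without the mouse block 18 were higher and 39 lower.

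Within the resting basal cells the keratin ratio had a median of 0.783, and 23 cells had no UMI of Krt4, Krt13 or Krtdap. The 73 cells just inside the threshold (ratio 0.5 to 0.6) and the 35 non-cycling cells just outside it (0.4 to 0.5) were alike in depth, at medians of 868 and 947 UMIs. As the median over mice, Col17a1 was at 9.47 UMIs per 10000 just inside and at 5.79 just outside, Dst at 15.9 and 12.8, Ccnd2 at 6.03 and 6.17 and Dmkn at 8.83 and 8.31. Across the members, 159 cells had a ratio of 0.5 to 0.7, 261 of 0.7 to 0.9 and 95 of 0.9 or more. Over these 3 bins Ccnd2 was at 5.86, 12.6 and 13.2 UMIs per 10000, Sox4 at 1.24, 4.55 and 3.60 and Ccn1 at 3.29, 4.51 and 6.81. Col17a1 was at 12.7, 13.4 and 16.3, and Dst at 16.4, 21.3 and 19.2. Dmkn was at 6.44, 3.36 and 1.70, Mt4 at 8.01, 1.76 and 0.888 and Ly6d at 15.4, 6.096 and 4.86, whereas Klf4 was at 8.20, 5.86 and 6.15. Rplp1 hardly moved, at 220, 213 and 214. Mouse 4 gave 68 of the 159 cells of the lowest bin, and some mice gave under 10 cells to a bin, so these values are a description without a test.

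The share of resting basal cells was 37.5% ± 12.8 (SD, n = 3) in old and 38.3% ± 11.2 (n = 3) in young mice, with p = 0.8 in a two-sided exact permutation test, which cannot go below 0.10 with 3 mice against 3. By mouse it was 52.1%, 28.6% and 31.7% in old mice 3, 4 and 5 and 30.1%, 51% and 33.6% in young mice 1, 2 and 6, so the spread within an age exceeded the difference between ages.

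Resting basal cells of old mice were compared with those of young mice. Of 1755 genes tested, 4 were higher (0.228%) and 2 lower (0.114%) with age, and 143 had an unadjusted p under 0.05. DESeq2 called 2 higher and 1 lower. Hoxc8 (chr15:102990539-102994275, RefSeq on GRCm38.p6), a homeobox gene, was at 280, 287 and 437 CPM in the old mice and at 41.4, 74.7 and 86.0 CPM in the young. The log2 fold was 2.32 ± 0.39 (edgeR adjusted p = 0.000419), but it rests on 77 and 19 UMIs. Ccn1 was at 613, 689 and 888 CPM in old and at 217, 277 and 286 CPM in young mice (log2 fold 1.49 ± 0.26, edgeR adjusted p = 0.000583). H19 (chr7:142575530-142578146), an imprinted long noncoding RNA, was lower, at 344, 771 and 1019 CPM in old and at 1915, 2153 and 2915 CPM in young mice (log2 fold -1.64 ± 0.25, edgeR adjusted p = 0.000119). These 3 also passed in DESeq2 and with each mouse left out in turn. With the second copies left out their log2 folds were 2.31, 1.40 and -1.58, and all 3 passed. Ccn1 did not pass with cells thinned to 500 UMIs (adjusted p = 0.142), nor Hoxc8 from the first library of each mouse (adjusted p = 0.0545). After thinning, 5 of the 6 genes called with age were tested and 1 was called again. No gene was called higher with age there, so Hoxc8 was not called either.

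Hpgd, which degrades prostaglandins, was at 470, 852 and 1055 CPM in old and at 258, 300.2 and 386 CPM in young mice. Sox4 was at 444, 509 and 646 CPM against 217, 239 and 248.9 CPM. Dmkn was at 239, 301 and 340 CPM in old and at 485, 774 and 849 CPM in young mice (log2 fold -1.29 ± 0.27). None of these 3 genes overlapped between the ages, which the limits for naming a gene also asked for. For 3 mice against 3, a gene without a difference separates with a probability of 0.1. How many of all tested genes separated was not counted. Hpgd, Sox4 and Dmkn all missed the threshold in DESeq2 (adjusted p = 0.0541 for Hpgd, 0.235 for Sox4 and 0.0773 for Dmkn). Without old mouse 4, young mouse 1 or young mouse 2 all 3 missed it in edgeR too, Sox4 also without old mouse 3 (adjusted p = 0.0939), and Sox4 with the second copies left out (adjusted p = 0.0718). With cells thinned to 500 UMIs the log2 fold of Dmkn was -0.69 (adjusted p = 0.534), from the second libraries it was -0.93 (adjusted p = 0.231) and with a ratio of at least 0.7 it was -1.098 (adjusted p = 0.0868). Col17a1 was nearly equal, at 1313, 1341 and 1398 CPM in old and 1335, 1405 and 1494 CPM in young mice, a log2 fold of -0.06 that did not pass. None of the 11 hemidesmosome, 8 basal transcription factor or 44 ribosomal genes tested passed. On simulated counts of this comparison, 85 of 172 genes changed by a log2 fold of 1 were recovered (49.4%), so a change of that size in 1 gene could be missed. The difference between resting basal and other cells was itself tested between ages, and 1 of 1910 genes (0.0524%) was further down in old mice and none (0.0%) further up. It was Dmkn, with an interaction of -1.12 ± 0.24 (edgeR adjusted p = 0.00779), which no longer passed with the second copies left out or in DESeq2. At an unadjusted p under 0.05 there were 101 genes in edgeR and 9 in DESeq2.

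**Figure D4:**
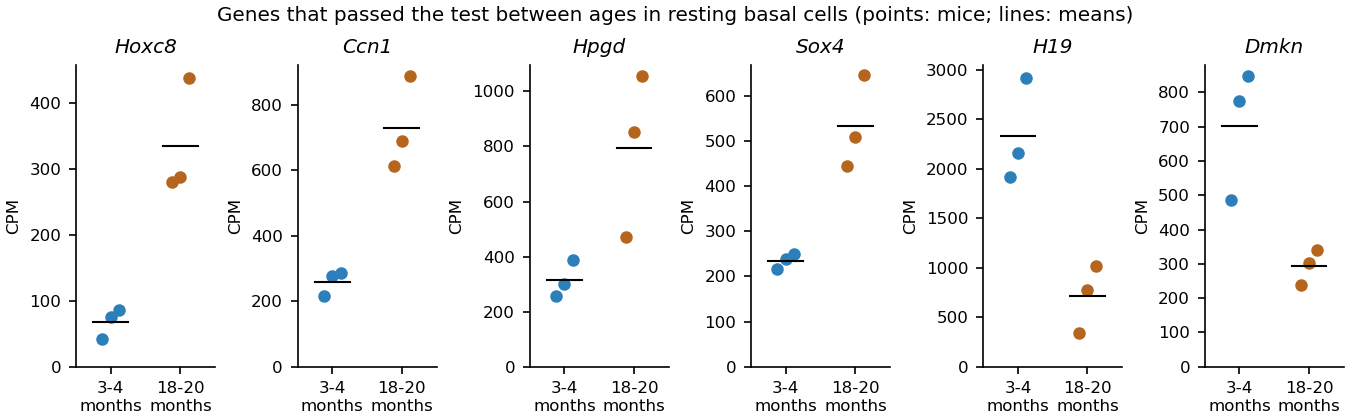
Levels in CPM of the 6 genes that passed the test between ages in resting basal cells, with 1 point per mouse and a line at the mean of 3 young (blue) and 3 old (brown) mice. Hoxc8, Ccn1, Hpgd and Sox4 are higher and H19 and Dmkn lower in each of the 3 old mice than in each of the 3 young. How many of all tested genes separate in this way was not counted, and the limits for naming a gene also asked for it.

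Cells that meet the same rule made up 73.1%, 81.8% and 56.4% of the cells of ESCC mice 17F, 17M and 8M, 1100 cells in all. Their cells were deeper, at a median of 3099.5 UMIs against 990 in controls, and the rule has a UMI minimum. At 500 UMIs per cell the share was 55.1% ± 12.8 (n = 3) in ESCC and 34.0% ± 7.50 (n = 6) in control mice (two-sided exact permutation test, p = 0.0476). With 1 mouse left out the difference was 14.0 to 26.5 percentage points and passed only without young mouse 2 (exact permutation p = 0.0357), with p of 0.0714 or 0.143 without any of the other mice in fewer possible regroupings. With at least 20 keratin UMIs it was 13.6% and 5.196%, and among cells with 10 keratin UMIs 75.6% and 37.4% (exact permutation test, p = 0.0238 for each). With all UMIs it was 70.5% and 37.9% (exact permutation test, p = 0.0238, the smallest that 3 against 6 can give). In EoE mice 0 of 1500 cells met the rule. Only 341 of them had the 10 keratin UMIs it asks for, 1 with a ratio of at least 0.5, at a median of 138 UMIs per cell, so their share could not be measured at this depth and no comparison with EoE was made.

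**Figure D5:**
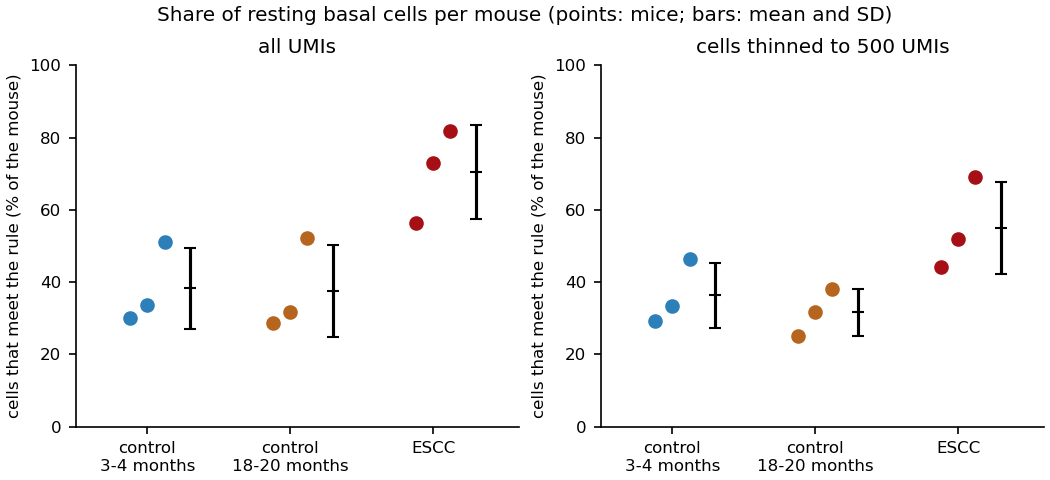
Share of the cells of each mouse that meet the rule (points), with the mean and SD of the group (bars), from all UMIs (left) and with each cell thinned to 500 UMIs (right). Young and old control mice overlap, and the 3 ESCC mice sit at 56.4 to 81.8% with all UMIs and at 44.2 to 69.1% when thinned, where the lowest ESCC mouse falls below the highest control mouse at 46.5%.

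Between these ESCC cells and control resting basal cells, 417 of 2297 genes tested were higher (18.2%) and 361 lower (15.7%). Depth, age and treatment moved together in this comparison and cannot be told apart. Some transcripts present in nearly every cell were nearly missing in the controls, such as Gapdh with 3 UMIs in 498907 against 6130 in 3470266, and 94 of the 417 higher genes have an annotated copy. The authors describe a common counting and filtering procedure for their samples. Whether the deposited control and ESCC tables were in fact made alike was not tested. Only 5 of the 11 higher genes with at most 3 control UMIs have an annotated copy. Values are given mainly for genes without a copy. Col17a1 stayed near level, at 1073, 1152 and 1278 CPM in ESCC and at 1219 to 1391 CPM in control mice (log2 fold -0.15 ± 0.17, not past the threshold), as did Itga6 (0.42), Itgb4 (0.18) and Igfbp3 (-0.11). Dst fell by 1.17 ± 0.24, Ccnd2 by 0.86 ± 0.25, Jag2 by 1.25 and Fgfr2 by 1.06 on the log2 scale. Wound keratins rose: Krt6a was at 1497, 4786 and 6767 CPM against 99.9 to 633 CPM in controls (log2 fold 3.81 ± 0.39), and Krt17 had a log2 fold of 3.21. Krt6b had 4 UMIs in control resting basal cells, nearly as few as Gapdh, and 11431 in ESCC. If both tables were counted alike, the ratio was 411 with a 95% counting interval of 160.4 to 1508. That interval leaves out the spread between mice. Cdkn1a (1.79) was higher and 10 of 13 immediate early genes were lower, with Fos at -1.69. Among genes called at the same minimum level and without overlap between ESCC and control mice, the 5 of the largest rise were Rps27rt, Slc7a11, LOC105244208, Rpl23a and Rps6. All but Slc7a11 and LOC105244208 have an annotated copy. Slc7a11, the cystine transporter, was listed at 0 UMIs in control resting basal cells and at 2125 in ESCC, at least 102-fold higher against a floor of 3 UMIs over the group if both tables were counted alike. The largest falls by these limits were of Gm12669 (with a copy), Ndufa4l2, Mir6236, H19 and Pdk4. H19, at 14.4, 58.0 and 146 CPM in ESCC against 320 to 2756 CPM in controls, had a log2 fold of -4.46 ± 0.61.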

How the data were processed

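The deposited tables hold raw, unnormalized UMI counts. The authors made these counts from inDrop libraries of peeled esophageal epithelium with UMI-tools 1.0.0, STAR 2.7.3 and featureCounts on GRCm38, per the submitters' processing notes, and they cover 17541 genes and 1500 cells per condition. Strand of counting is not given in the sources used here. Cells were assigned by the keratin and cycle rule, and the members and the 27 gene lists were chosen with earlier results of these data known. Counts were summed per mouse and population, since cells are not replicates, and tested with edgeR 4.0.16 (quasi-likelihood, filterByExpr, TMM) in R 4.3.3, with the mouse as a block within controls and none between mice. The 15 genes of the rule stayed out of the test. Adjusted p-values are Benjamini-Hochberg over all genes tested, with a threshold of 0.05, and measure the spread between mice, 1 sample of tissue each. A block fits because both populations come from the same mouse, whose deviations correlated at 0.0949 to 0.367. Single values were tested by exact permutation. Genes named were the 10 largest log2 folds in each direction against other cells, 5 against cycling, intermediate and ESCC cells, all called with age, and listed genes. A gene has a copy when another GENCODE M21 gene holds at least 10% of the 31-base words in the last 300 bases of its longest transcript. DESeq2 1.42.0, other scaling, filters, thinning to 500 UMIs, stricter rules, single libraries, and each mouse left out were alternatives, and leaving out second copies of shared barcodes was added after seeing the data. Depth was 112412 to 427752 UMIs per control mouse. On simulated counts with a log2 fold of 1, 170 of 176 changed genes were recovered against other cells. No batch is given in the labels.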

Additional observations from a re-analysis of the deposited data

Results flagged for a closer look

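Over 6 control mice, 97 values were examined for a mouse far from the other 5 (Dixon's gap over range), where chance gives about 1 in 20, and 7 stood apart. The median keratin ratio of resting basal cells was 0.667 in old mouse 4, below that of the other mice. Per-mouse log2 ratios of resting basal over other cells, with 10 CPM added, stood apart for 6 genes. Old mouse 4 had 0.68 for Fgfr2, against 1.35 to 1.57 in the other 5, and -5.48 for Psapl1, against -4.54 to -4.03. Young mouse 6 had -1.65 for H2-K1, a class I MHC gene, against -0.18 to 0.60, and -1.43 for Klf4, against -1.12 to -0.98. Old mouse 3, which gave 37 resting basal cells, had -1.29 for the Notch target Hes1, against 0.09 to 0.50. Old mouse 5 had 2.08 for Itga6, against 1.18 to 1.44.

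The fall of Dmkn in resting basal against other cells differed between ages, with a log2 interaction (old minus young) of -1.12 ± 0.24 (SE; edgeR, adjusted p = 0.00779). The mean log2 ratio was -3.64 in the 3 old and -2.61 in the 3 young mice. In resting basal cells Dmkn was at 234 to 335 CPM in old and 472 to 827 CPM in young mice, and in the other cells at 3405 to 3873 CPM and 3200 to 4962 CPM. DESeq2 gave no call, nor did edgeR with the second copies left out.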

How the results depend on the processing

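Counts of genes higher and lower are given in that order. Against other control cells (391 and 412), DESeq2 gave 245 higher, no filter on low counts 959 lower, thinning 161 and 142 of 796 tested, the first libraries 178 and 156 and the second 185 and 173. Of the 803 genes called, 671 were also called without the mouse block and 529 by DESeq2. Against cycling basal cells (98 and 99), DESeq2 gave 43 higher, no filter 173 and 172, thinning 33 and 37, and no mouse block 38 higher. Against intermediate cells (42 and 62), DESeq2 gave 19 higher, no filter 131 and 25, thinning 13 and 23, and no block 18 and 39. Between ages (4 and 2), DESeq2 gave 2 and 1, thinning 0 and 1, a ratio of at least 0.7 gave 8 and 1, at least 20 keratin UMIs 2 higher and the first libraries 2 higher. In ESCC (417 and 361), no filter gave 1117 higher and thinning 210 and 208. The Dmkn interaction count of 1 was 0 in DESeq2 and with second copies left out. The old minus young share of resting basal cells was 0.0313 percentage points with at least 20 keratin UMIs. Leaving out each mouse gave 350 to 428 and 353 to 405 against other cells, 62 to 104 and 81 to 118 against cycling, 27 to 42 and 40 to 75 against intermediate, 3 to 12 and 1 to 4 with age, and 328 to 520 and 227 to 460 in ESCC, where 17F gave the 227. The most calls with age, 12 and 4, came without young mouse 6, and 9 and 3 came without old mouse 3. The age difference in share ran from -8.10 to 5.60, with the sign turned without young mouse 2 (5.60), old mouse 4 (3.65) or old mouse 5 (2.11), the ESCC difference from 14.0 to 26.5, the depth difference from -216.7 to -153.6 UMIs and that of genes per cell from 8.8 to 12.4, where fewer mice raise the smallest possible p. Among the alternatives for the named genes and the list counts, 3551 kept their side, 286 counts moved, 78 calls were lost, 13 were gained and 0 turned sign. Among all genes called, 1 had the opposite sign against other cells when thinned and 3 against intermediate cells with no filter. Where thinning or single libraries lowered the count, fewer genes or UMIs entered; other causes were not tested.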
